A study of Mus musculus with 6 samples.

Results

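The genes described here are RNA helicases and splicing factors of the mouse hippocampus, chosen by the start of their symbols: Ddx, Dhx, Srsf, Rbm, Hnrnp, Prpf, Sf3, Cpsf, Celf, Elavl or Snrp. The sex-linked Ddx3y and the innate sensors Ddx58, Ddx60 and Dhx58 were left out by the same rule. It found 36 members among the 3733 genes of the deposited table. The rule itself used no measured value, but the table was selected by the authors on fold changes of these same libraries. Measured values therefore did enter which genes could become members. A RefSeq gene table holds 178 protein-coding genes with these prefixes, so most of the families are not in the table, which lists only genes that the authors called in at least 1 comparison. By prefix class, 13 members are Rbm proteins, 6 are DEAD-box helicases (Ddx), 5 are Celf and Elavl proteins, 5 belong to the core spliceosome (4 Prpf and 1 Sf3), 3 are hnRNPs, 2 are DExH-box helicases (Dhx) and 2 are SR proteins (Srsf). No Cpsf or Snrp gene was among the listed genes.

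Total RNA of hippocampus was sequenced in 6 libraries, 2 in each of 3 groups named Control, PIA and PIA+IL-27. The series' title speaks of postnatal immune activation, and its design text calls the PIA group LPS and the PIA+IL-27 group LPS+rIL-27. Lipopolysaccharide (LPS) is a bacterial surface molecule that sets off innate immune responses. IL-27 is a cytokine of the IL-12 family, given here as the recombinant protein (rIL-27). Strain, sex, age, dose, timing and the number of animals behind a library are not stated, so p-values measure only the spread between these libraries. The PIA+IL-27 libraries differed in summed Y-linked reads (1476 and 6.80), so they were not repeats of the same RNA sample. Whether the libraries of Control, or those of PIA, came from different animals is not stated.

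Pre-mRNA splicing removes introns in the spliceosome, a machine of small nuclear RNAs and proteins that is rebuilt on each intron and remodelled by RNA helicases of the DEAD-box and DExH-box families. SR proteins and hnRNPs bind the pre-mRNA and bias which exons are kept, while many Rbm proteins carry the same RNA recognition motif and act in splicing, RNA decay or RNA editing. Neurons add Celf and Elavl proteins, which control alternative splicing and the stability of AU-rich mRNAs during neuronal differentiation and in the adult brain.

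Promoter windows are shown for 4 members, since most members moved together from library to library and 1 did not. Elavl4, Prpf39 and Rbm26 had the largest fitted differences of their classes between PIA+IL-27 and PIA, and Rbm47 was the member that went the other way. Each window runs from 250 bases before a gene start of RefSeq to 50 bases after it, build GRCm38.p6, 5′ to 3′ on the gene's strand. Where a gene had several starts with a window, the outermost of these was taken. For Rbm26 and Elavl4 that start lies inside the gene's RefSeq span, which reaches 105181039 and 110351939. Capitals mark a match on either strand to any of 6 short motifs, which are the ETS core CCGGAA, the SP core GGGCGG, the CCAAT box, the NRF1 core TGCGCA, the TATA box TATAAA and the CRE TGACGTC.
Elavl4, chr4:110351862-110352161, minus strand: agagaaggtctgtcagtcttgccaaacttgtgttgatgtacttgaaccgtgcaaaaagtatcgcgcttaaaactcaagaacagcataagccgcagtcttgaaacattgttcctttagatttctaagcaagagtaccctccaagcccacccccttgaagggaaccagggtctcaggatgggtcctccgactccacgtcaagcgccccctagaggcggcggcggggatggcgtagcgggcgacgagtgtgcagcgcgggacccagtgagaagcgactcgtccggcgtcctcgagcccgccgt
Prpf39, chr12:65036084-65036383, plus strand: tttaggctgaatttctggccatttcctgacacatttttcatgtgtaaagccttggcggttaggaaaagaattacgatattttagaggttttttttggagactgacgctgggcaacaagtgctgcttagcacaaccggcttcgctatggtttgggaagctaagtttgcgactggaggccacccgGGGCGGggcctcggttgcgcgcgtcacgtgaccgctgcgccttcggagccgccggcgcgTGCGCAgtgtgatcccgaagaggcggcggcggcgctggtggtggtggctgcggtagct
Rbm26, chr14:105177265-105177564, minus strand: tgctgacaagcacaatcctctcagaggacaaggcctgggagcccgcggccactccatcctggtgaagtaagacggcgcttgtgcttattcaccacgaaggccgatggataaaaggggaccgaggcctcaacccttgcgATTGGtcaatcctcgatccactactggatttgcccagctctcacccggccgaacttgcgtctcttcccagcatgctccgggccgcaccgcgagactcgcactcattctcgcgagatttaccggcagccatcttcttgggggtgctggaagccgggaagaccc
Rbm47, chr5:66151905-66152204, minus strand: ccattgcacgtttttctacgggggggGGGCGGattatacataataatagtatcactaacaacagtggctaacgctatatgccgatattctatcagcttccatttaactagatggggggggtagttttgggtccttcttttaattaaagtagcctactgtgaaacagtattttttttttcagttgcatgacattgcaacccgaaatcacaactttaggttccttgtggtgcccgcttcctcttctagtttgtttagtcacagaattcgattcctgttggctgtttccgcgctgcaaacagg
The Prpf39 window holds 1 SP core and 1 NRF1 core, the Rbm26 window 1 CCAAT box on the opposite strand, the Rbm47 window 1 SP core, and the Elavl4 window none of the 6. Counting CpG dinucleotides, the windows of Elavl4, Prpf39 and Rbm26 hold 23, 27 and 21, and the Rbm47 window holds 10. Windows were found for 31 of the 36 members. Their median was 24 CpG dinucleotides, from 0 in Rbm25 to 44 in Hnrnpa3, against a median of 7 over the windows of 27025 genes. These are all genes with a window, listed or not, and the members were not set against the listed genes alone. The SP core occurred in 61.3% of the members' windows and 35.9% of all windows, and the ETS core in 25.8% and 15.2%. The CCAAT box occurred in 45.2% and 38.0%, the NRF1 core in 9.68% and 8.07%, the TATA box in 16.1% and 14.2%, and the CRE in 3.23% and 3.30%. A match overlapping another motif was counted for both, and these shares describe letters in a window only.

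The libraries were similar in depth, 14622472 to 15863269 reads as estimated from single-transcript genes, but the listed genes took between 641672 and 1593441 of those reads. Markers of other tissues and cell types differed within groups. Summed normalized read counts of 19 choroid plexus markers were 67060 in Control 2 and 970 to 13410 in the other libraries. Of 13 neocortical markers 6 were listed, and their sum was 30310 in PIA+IL-27 1, 11100 in PIA 2 and 4575 to 6149 elsewhere. Mef2c alone gave 21320 of the highest sum, and not all 6 genes followed it: Bcl11b was lowest in PIA 2 (348) and PIA+IL-27 1 (873), and Rspo1 was lowest in PIA+IL-27 1 (11.5). Of 10 markers of the dentate gyrus, a defining part of the hippocampus, 5 were listed and none was at 0 in any library. They summed to 395 in PIA 2 and to between 887 and 2340 in the other libraries. The sum of 1131 in PIA+IL-27 1 came mostly from Stxbp6 (709). Prox1 and Dsp were lowest in PIA 2 (96.0 and 6.55) and next lowest in PIA+IL-27 1 (172 and 16.7). Lct was lowest in PIA+IL-27 1 (20.9), whereas C1ql3 was not low there (213). The 4 Y-linked genes summed to 541, 594 and 1476 in PIA 1, PIA 2 and PIA+IL-27 1 and to 2.94 to 9.52 in the rest. Both PIA libraries thus held these reads and both Control libraries nearly none, while PIA+IL-27 had a library of each kind. In PIA against Control this difference, and with it the sex of the animals, cannot be told apart from treatment. How these differences bear on the members was not tested.

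Across the libraries, the members were high in Control 2, PIA+IL-27 1 and PIA+IL-27 2 and low in Control 1, PIA 1 and PIA 2. The median member had a normalized read count (the authors' read count divided by a library factor) of 213.5 in Control 1, 657.5 in Control 2, 328.1 in PIA 1, 218.7 in PIA 2, 762.2 in PIA+IL-27 1 and 614.6 in PIA+IL-27 2. Their summed TPM, a level scaled by transcript length and library, split the same libraries, with 459, 1235, 602, 386, 1437 and 1155 in that order of libraries, and was lowest in PIA 2 rather than Control 1. In 35 of 36 members (97.2%) each of the 3 high libraries stood above each of the 3 low ones, and the exception was Rbm47. That arrangement was also the commonest direction of the table, holding for 1956 of the 3733 listed genes (52.4%). PIA+IL-27 1 was the highest library for 30 members, Control 2 for 3 and PIA+IL-27 2 for 3. The lowest library was PIA 2 for 18 members and Control 1 for 16.

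**Figure D1:**
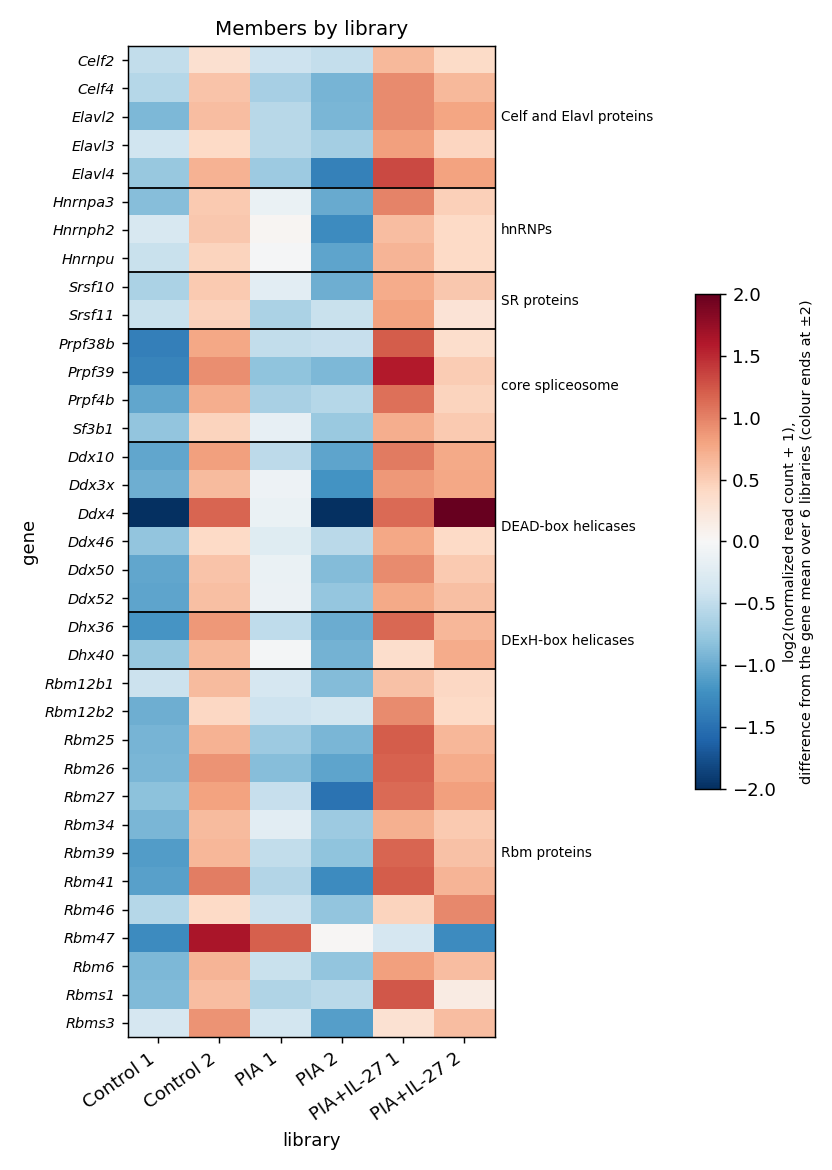
Each row is 1 of 35 members and each column 1 library; colour gives log2(normalized read count + 1) as the difference from the gene's mean over the 6 libraries, with red higher, blue lower and the colour ending at a difference of 2. Control 2 and both PIA+IL-27 libraries are red in nearly every row and Control 1 and both PIA libraries blue, with Rbm47 the exception.

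The Control libraries thus differed from each other in all 36 members. Control 2 exceeded Control 1 by a median of 2.85 times, from 1.75 times in Elavl3 to 8.99 times in Rbm47, and 75.1% of all listed genes were also higher in Control 2. The gap was smallest for the hnRNPs (median ratio 1.85) and the SR proteins (2.05), and largest for the core spliceosome (3.41) and the DExH-box helicases (3.32). Set against Control 1 alone, PIA 1 had a median ratio of 1.34 over the members and PIA 2 of 0.990. Set against Control 2, PIA+IL-27 1 had a median ratio of 1.24 and PIA+IL-27 2 of 0.976. The PIA libraries differed less, with PIA 2 at a median of 0.696 of PIA 1, and the difference was widest for the hnRNPs, at 0.491.

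Among the neuronal RNA-binding proteins, Elavl4 (HuD), which stabilises AU-rich mRNAs in neurons, had the widest fitted difference. Its normalized read count was 335 and 918 for Control, 343 and 222 for PIA, then 1410 and 989 for PIA+IL-27. Both PIA+IL-27 libraries stood above all the others, PIA 1 was level with Control 1, and PIA 2 was the lowest. The fitted log2 fold change was 2.09 ± 0.88 (SE) for PIA+IL-27 against PIA, a 4.25-fold higher level, with an edgeR adjusted p of 0.257. Against Control it was -1.15 ± 0.85 for PIA and 0.94 ± 0.85 for PIA+IL-27, with edgeR adjusted p-values of 0.617 and 0.835. The authors' deposited table gives a Q value of 2.003e-271 for Elavl4 in PIA+IL-27 against PIA by a test that is not stated.

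Celf2, a splicing and translation regulator and the class member with the highest TPM, had counts of 3221 and 5645 for Control, 3401 and 3236 for PIA, then 7105 and 5906 for PIA+IL-27. The PIA+IL-27 libraries were above the rest, and Control 1 was level with PIA. Its log2 fold change in PIA+IL-27 against PIA was 0.97 ± 0.78, the lowest of the class. Elavl3 (HuC) and Celf4, described here after their values were seen, have transcripts of higher GC content. Elavl3 counted 1869 and 3264 for Control, 1677 and 1546 for PIA, then 4353 and 3351 for PIA+IL-27. Celf4 counted 1128 and 2465 for Control, 1047 and 876 for PIA, then 3227 and 2607 for PIA+IL-27. Both genes had each PIA library below each Control library and each PIA+IL-27 library above each Control library. All 5 Celf and Elavl members, Elavl2 (HuB) included, had PIA+IL-27 above Control without overlap, as did 23.0% of all listed genes. The 3 listed neuronal markers moved alongside them, summing to 7070, 17750, 9220, 5147, 18030 and 19370 from Control 1 to PIA+IL-27 2. The part of neuronal content in these levels was not tested, and in bulk tissue fewer cells of a type cannot be told apart from less RNA per cell.

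The 3 hnRNPs are abundant nuclear proteins that coat pre-mRNA, and they included the members with the highest TPM. Hnrnpu, also called SAF-A and bound to chromatin-associated RNA, had counts of 3158 and 5832 for Control, 4197 and 2062 for PIA, then 6903 and 5653 for PIA+IL-27. The PIA libraries differed from each other by more than the PIA+IL-27 libraries did, and the Control libraries overlapped both treated groups. Hnrnpa3, a relative of hnRNP A1 that also takes part in RNA trafficking, had counts of 1927 and 4991 for Control, 3165 and 1727 for PIA, then 6928 and 4861 for PIA+IL-27. The log2 fold change in PIA+IL-27 against PIA was 1.004 ± 0.78 for Hnrnpu and 1.27 ± 0.79 for Hnrnpa3. None of the 3 hnRNPs had PIA+IL-27 apart from Control.

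Srsf11, an SR-related splicing protein, represents the SR proteins with counts of 874 and 1639 for Control, 767 and 882 for PIA, then 2081 and 1445 for PIA+IL-27. PIA 2 slightly exceeded Control 1 here, and PIA+IL-27 overlapped Control. Its log2 fold change in PIA+IL-27 against PIA was 1.10 ± 0.83, beside 1.18 for Srsf10, a splicing repressor when dephosphorylated.

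Core spliceosome members described here include a U1-associated factor and the branch point subunit Sf3b1. Prpf39, which helps the U1 particle bind the donor splice site, had counts of 81.3 and 392 for Control, 117 and 109 for PIA, then 618 and 292 for PIA+IL-27. Control 1 was the lowest library and Control 2 lay between the PIA+IL-27 libraries. Its log2 fold change was 2.01 ± 0.91 in PIA+IL-27 against PIA and -1.07 ± 0.89 in PIA against Control. Sf3b1, the subunit that recognises the branch point, had counts of 1403 and 3270 for Control, 2148 and 1441 for PIA, then 4000 and 3468 for PIA+IL-27. Both PIA+IL-27 libraries were above both Control libraries, while PIA lay inside the Control range, and the log2 fold change in PIA+IL-27 against PIA was 1.06 ± 0.80. The kinase Prpf4b and Prpf38b lay between, at 1.42 and 1.32.

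The 5 tested DEAD-box helicases had log2 fold changes of 0.98 to 1.69 in PIA+IL-27 against PIA. Ddx3x, which unwinds mRNA leaders during translation initiation, had counts of 1220 and 3703 for Control, 2226 and 1038 for PIA, then 4367 and 4093 for PIA+IL-27. Both PIA+IL-27 libraries exceeded Control 2, and the log2 fold change in PIA+IL-27 against PIA was 1.37 ± 0.80. Ddx3x shares sequence with its Y-linked copy Ddx3y, so reads may have been assigned to the wrong copy. Ddx3y counted 0 and 0 for Control, 129 and 79.6 for PIA, then 477 and 0 for PIA+IL-27. The deposited read counts of Ddx3x were whole in every library, so no fractional split between the copies is seen. The log2 fold changes of Ddx10 and Ddx52, which act in ribosome assembly, were 1.69 and 1.10 in PIA+IL-27 against PIA, and that of the branch point helicase Ddx46 was 0.98. Ddx4, the germ cell helicase Vasa, had no read in Control 1 and PIA 2, which allows up to 2.94 and 3.27 normalized counts, and reached 16.5 in PIA+IL-27 2. It failed the filter on low counts and was not tested.

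Dhx36, a DExH-box helicase that unfolds G-quadruplexes, had counts of 286 and 1182 for Control, 452 and 323 for PIA, then 1434 and 1023 for PIA+IL-27. Control 2 lay between the PIA+IL-27 libraries and Control 1 below both PIA libraries. Its log2 fold change in PIA+IL-27 against PIA was 1.67 ± 0.86, compared with 0.99 ± 0.88 for Dhx40. PIA 1 was 1.82 times Control 1 at the median of the DEAD-box helicases and 1.62 times at that of the DExH-box helicases, whereas for the Celf and Elavl proteins the ratio was 1.02. These ratios each rest on 1 library against 1, with no replicate check.

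**Figure D2:**
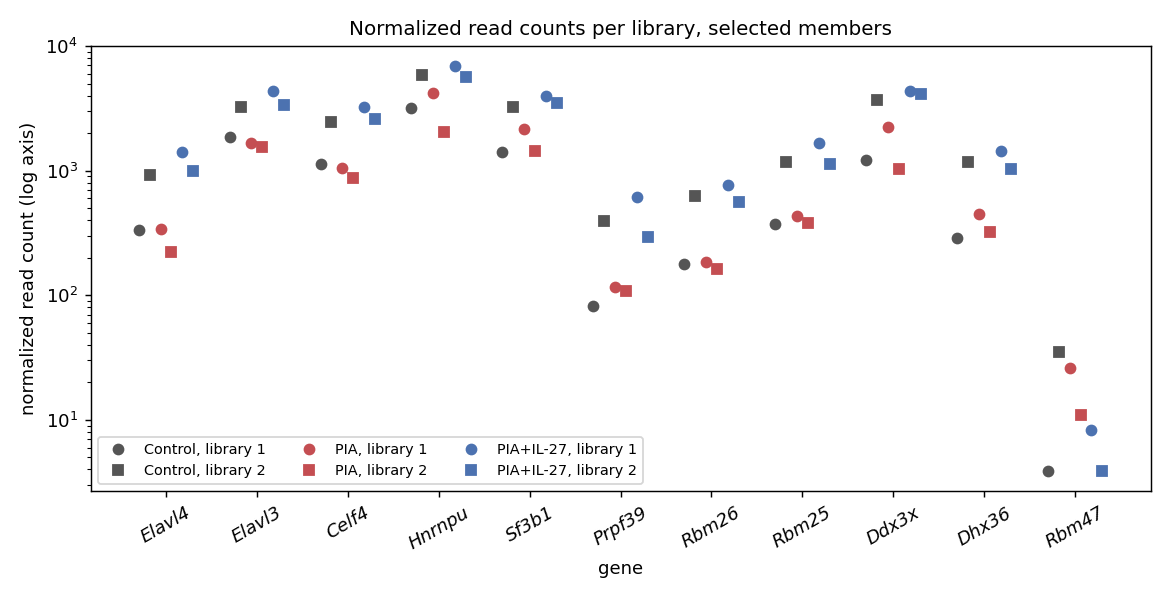
Normalized read counts (log axis) of 11 members in each library; colour gives the group and the symbol the library. For 10 of the genes both PIA+IL-27 points and Control 2 lie above Control 1 and both PIA points, and for Rbm47 the PIA+IL-27 points lie below the PIA points.

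The Rbm proteins, the largest class, ran in PIA+IL-27 against PIA from Rbm47 at -1.58 to Rbm26 at 1.92. Rbm26, a factor of the nuclear RNA decay connection, had counts of 178 and 629 for Control, 186 and 163 for PIA, then 763 and 562 for PIA+IL-27. Its relative Rbm27 had 108 and 334 for Control, 138 and 67.6 for PIA, then 418 and 336 for PIA+IL-27. Control 1 was level with PIA for Rbm26 and lay between the differing PIA libraries for Rbm27. For both genes Control 2 was near PIA+IL-27. The log2 fold change in PIA+IL-27 against PIA was 1.92 ± 0.89 for Rbm26 and 1.87 ± 0.92 for Rbm27. Rbm25, which works with the U1 particle to select donor sites, had counts of 373 and 1164 for Control, 431 and 379 for PIA, then 1657 and 1137 for PIA+IL-27, a log2 fold change of 1.79 ± 0.86 against PIA. Rbm39, a splicing factor related to U2AF, had 458 and 1571 for Control, 711 and 570 for PIA, then 2229 and 1499 for PIA+IL-27, and its log2 fold change was 1.54 ± 0.84. In these 2 genes Control 2 lay between the PIA+IL-27 libraries and Control 1 was the lowest. Rbm41, a protein of the minor spliceosome, was scarcer, at 23.5 and 105 for Control, 33.6 and 20.7 for PIA, then 119 and 81.6 for PIA+IL-27. Its log2 fold change in PIA against Control was -1.23 ± 0.99, the lowest of the members, although PIA 1 exceeded Control 1.

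Rbms3, an RNA-binding relative of the c-Myc single-strand binding proteins, had its highest count in Control 2 rather than in PIA+IL-27. It counted 118 and 277 for Control, 114 and 68.7 for PIA, then 184 and 227 for PIA+IL-27. PIA lay below Control without overlap, and the log2 fold change was -1.11 ± 0.92 in PIA against Control and 0.06 ± 0.91 in PIA+IL-27 against Control. Rbm47, a cofactor of C-to-U editing of apolipoprotein B mRNA, was the member outside the common arrangement. It counted 3.92 and 35.2 for Control, 25.9 and 10.9 for PIA, then 8.34 and 3.88 for PIA+IL-27. Both PIA libraries exceeded both PIA+IL-27 libraries, and the Control libraries spanned nearly the whole range. The log2 fold change was -1.58 ± 1.21 in PIA+IL-27 against PIA (edgeR adjusted p = 0.332) and -1.67 ± 1.21 in PIA+IL-27 against Control (0.835). Its level was near the detection limit, with a mean TPM of 0.340 over the 6 libraries, and without Control 2 its log2 fold change against Control turned to 0.62.

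Per length, the members' levels differed widely. Mean TPM over the 6 libraries was 90.5 for Hnrnpu, 90.3 for Hnrnpa3, 69.9 for Ddx3x, 60.5 for Celf2, 60.3 for Elavl3 and 49.0 for Sf3b1. The first 2 did not differ beyond their spread, with Hnrnpu running from 35.9 to 133 TPM and Hnrnpa3 from 38.8 to 158 TPM across libraries. At the other end were Rbm46 and Ddx4, both known from germ cells, with 0.460 and 0.215 TPM, and Rbm47.

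PIA against Control asks how the members stood after immune activation, in groups that also differed in Y-linked reads. No member passed the edgeR quasi-likelihood test at an adjusted p of 0.05 (0 of 35 tested), where 0.218% of the 3216 tested genes did; at an unadjusted p of 0.05 the count was also 0, as it was in DESeq2 and limma. All 35 log2 fold changes were below 0, with a median of -0.65. Over all tested genes the median was -0.68, and 894 of 3216 were above 0. With TMM or median-of-ratios factors, which centre each library on the listed genes (their median goes to about 0), the members' median was -0.02 with either. Then 15 of 35 members were above 0 with either, as were 1627 of 3258 and 1637 of 3259 genes in that order. PIA lay below Control without overlap in 4 of 36 members, Celf4, Elavl3 and Rbms3 among them, or 11.1%, against 16.5% of all listed genes. In the authors' deposited table, 9 of the 36 members are listed as lower, against 34.4% of all genes. By class the median ran from -0.77 in the Celf and Elavl proteins to -0.43 in the DEAD-box helicases. The direction rests on Control 2: without it the members' median was 0.28, and without Control 1 it was -1.20. The median of all tested genes moved likewise, to 0.29 and -1.19 in that order. In the fit without Control 1, 16 of 36 members had an unadjusted p under 0.05 and were lower, against 30.9% of the genes, and none passed the adjusted threshold.

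PIA+IL-27 against PIA asks what added IL-27 changed, and it held the largest differences. The median log2 fold change of the members was 1.32, a 2.501-fold higher level, against 1.17 for all tested genes. Above 0 were 34 of 35 members and 2406 of 3216 tested genes. With TMM and median-of-ratios factors the members' median was 0.08 and 0.12, with 23 of 35 above 0 in both. Of all genes, 1566 of 3258 and 1626 of 3259 were above 0 with these factors. No member passed the edgeR test after adjustment (0 of 35), where 0.435% of genes did. At an unadjusted p of 0.05, 6 members, among them Elavl4, Prpf39, Rbm26, Rbm25 and Rbm27, were higher, or 17.1%, against 14.4% of the tested genes; DESeq2 gave 13 members, against 24.2% of the genes, and limma 7 with a pseudocount of 1 and 8 with 0.1, against 13.3% and 13.7%, with 0 members after adjustment in each. The groups did not overlap in 36 members, 35 of them higher in PIA+IL-27, or 97.2%, against 57.1% of the listed genes, and Rbm47 lower, a direction held by 16.5% of the genes. The authors' deposited table lists the same direction counts, 35 higher against 61.4% of all genes and 1 lower against 18.2%. All 36 members thus met the authors' cut of 1 or more log2 units in this very comparison, on the same libraries. The members' median, signs and lack of overlap here therefore partly restate how genes entered the table, and are no independent evidence. The class medians were 1.59 in the Celf and Elavl proteins, 1.42 in the core spliceosome, 1.38 in the Rbm proteins, 1.33 in the DExH-box helicases, 1.21 in the DEAD-box helicases, 1.14 in the SR proteins and 1.004 in the hnRNPs.

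The call in this comparison depended on which libraries set the spread. With only its 4 libraries in the fit, 8 of 35 members passed the edgeR test and were higher, at adjusted p-values of 0.0493 to 0.0497. Among them were Dhx36, Elavl2, Elavl4, Prpf39, Rbm25, Rbm26 and Rbm27. In that fit 13.8% of all genes tested were called higher. When the libraries with the highest neocortical marker sums (PIA 2 and PIA+IL-27 1) were left out, the members' median was 0.95 and all genes' 0.90.

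PIA+IL-27 against Control asks how far the members stood from Control after both treatments. No member passed (0 of 35) in a comparison where 0.311% of the genes did, and none had an unadjusted p under 0.05 by edgeR, DESeq2 or limma. The members' median log2 fold change was 0.71, against 0.55 for all tested genes. Above 0 were 34 of 35 members and 2356 of 3216 tested genes. With TMM and median-of-ratios factors the members' median was 0.20 and 0.23, with 25 and 26 of 35 above 0. Of all genes, 1609 of 3258 and 1686 of 3259 were above 0 with these factors. PIA+IL-27 stood above Control without overlap in 12 members, or 33.3%, against 23.0% of the genes. They included the 5 Celf and Elavl proteins, Ddx3x, Ddx52, Sf3b1, Srsf10, Rbm27 and Rbm46. In the authors' deposited table, Ddx4 is the 1 member listed as higher and Rbm47 the 1 listed as lower, where 13.3% and 8.57% of the genes are. Without Control 2 the members' median was 1.66, against 1.36 for all tested genes. Without Control 1 these medians were 0.18 and 0.08. The 3 comparisons share libraries in pairs, so their values for a member are not independent.

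**Figure D3:**
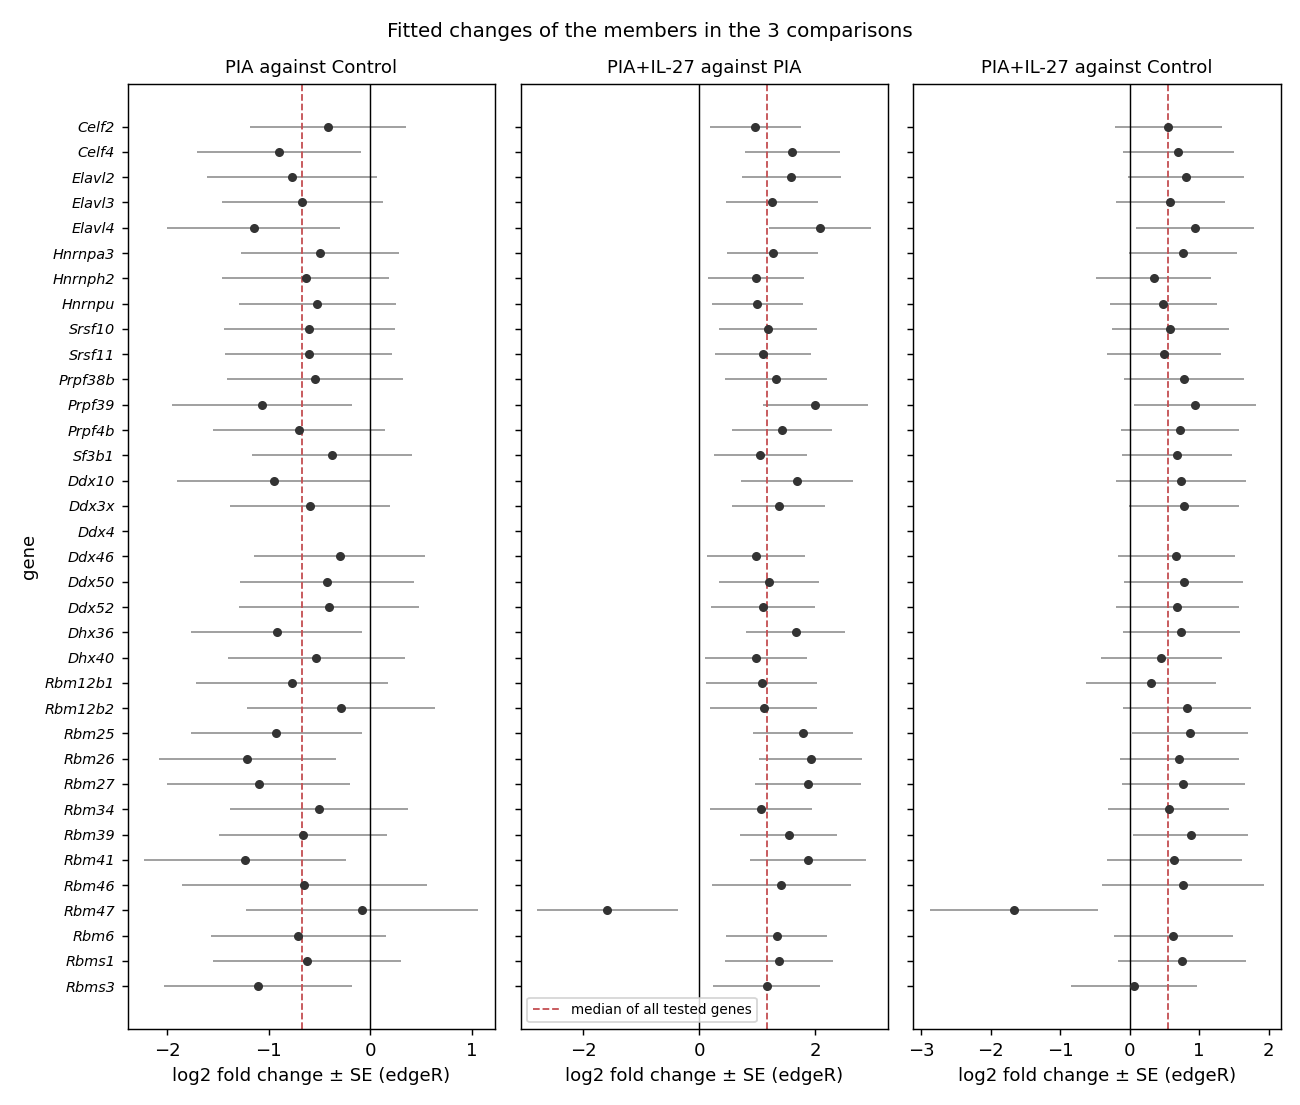
Fitted log2 fold change of 34 tested members with its standard error (bars), in the 3 comparisons; the red dashed line is the median of all 3216 tested genes. The members scatter around that line in each panel, all below 0 in PIA against Control and, Rbm47 excepted, all above 0 in the other comparisons.

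Beyond family, the members shared a base composition that the rule did not use. The longest coding transcripts of the 36 members had a median GC content of 42.3%, against 44.8% over the listed genes, and 28 of the 36 lay below that value. They were also longer, at a median of 4109 bases against 3589. Fold changes in the whole table moved with GC content: across 3121 genes, which are not independent replicates, Spearman's rho was -0.63 in PIA+IL-27 against PIA, and across the 35 members it was -0.36. Among genes with a GC content of 40.9 to 43.8%, the middle range of the members, 17 members had a median log2 fold change of 1.17 and the 706 other genes 1.39.

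With the trends in GC content and length removed from each library, which also centres each library on the listed genes, the members' median log2 fold change was -0.05 for PIA+IL-27 against PIA, 0.08 for PIA against Control and 0.05 for PIA+IL-27 against Control. The class medians in PIA+IL-27 against PIA then ran from -0.48 in the hnRNPs to 0.36 in the Celf and Elavl proteins. Elavl3 and Celf4, whose transcripts have 54.1% and 49.3% GC, had the highest fitted values of the members in PIA+IL-27 against PIA, 1.91 and 1.34. Neither passed the edgeR quasi-likelihood test over all genes (adjusted p = 0.614 for both). Rbm26 had 0.81 there and Elavl4 0.36, and Rbm47 stood at -2.31. No member passed the adjusted threshold in that fit.

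**Figure D4:**
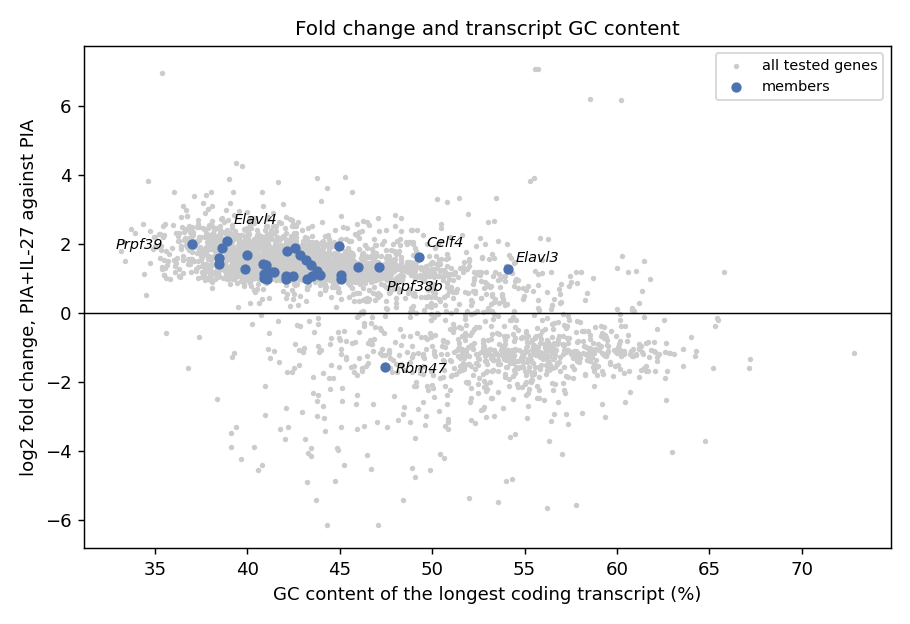
Log2 fold change in PIA+IL-27 against PIA by the GC content of the longest coding transcript, for all tested genes (grey) and 34 members (blue). Most members lie in the band of AT-rich genes above 0, Elavl3 and Celf4 stand to the right at higher GC content, and Rbm47 lies below 0.

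Other genes of splicing, RNA helicase activity and mRNA 3′ end formation, without these prefixes, were arranged in a like way. Of 183 such genes, 39 were listed and 38 tested. In each comparison 0 of the 38 passed the edgeR test after adjustment, and 8 were higher at an unadjusted p under 0.05 in PIA+IL-27 against PIA, where 14.4% of all tested genes were. Their median log2 fold changes were 1.47 for PIA+IL-27 against PIA, -0.84 for PIA against Control and 0.73 for PIA+IL-27 against Control. With the GC and length trends removed they were 0.05, 0.01 and 0.10 in that order. PIA+IL-27 lay above PIA without overlap in all 39, an arrangement held by 57.1% of all listed genes. These genes too entered the table by the authors' cut on the same libraries. Their medians and lack of overlap therefore partly restate that selection and are no independent evidence. Matr3, a nuclear matrix protein that represses exons, had counts of 1158 and 3813 for Control, 1310 and 856 for PIA, then 5697 and 4020 for PIA+IL-27, a log2 fold change of 2.17 ± 0.82 against PIA (edgeR adjusted p = 0.257). Ppig, a cyclophilin with an SR-like tail, had 90.1 and 338 for Control, 98.0 and 62.2 for PIA, then 456 and 323 for PIA+IL-27, at 2.28 ± 0.93. Thoc1, a subunit of the mRNA export complex THO, had the next smallest p against Control, at 0.99 ± 0.89. In these genes too Control 2 was close to the PIA+IL-27 libraries and Control 1 to the PIA libraries.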

How the data were processed

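RNA of mouse hippocampus was measured in 6 libraries, grouped by the treatment in the labels, and table columns were joined to samples by library name. Expected counts, which the authors estimated for each gene and deposited, include decimals: 11.3 to 13.3% of the values are not whole. Among the members this concerns Celf2, Hnrnpu, Prpf39, Rbm12b1, Rbm12b2 and Rbms3, and reads of the near copies Rbm12b1 and Rbm12b2 are uncertain. Dividing each count, after rounding up, by a library factor of 0.917 to 1.05 gives the signal that the authors deposited as normalized read count. Per the file headers, the authors give TPM and FPKM, both scaled to the whole library. For each comparison the authors deposited log2 fold changes with a Q value, a p-value adjusted for many genes. No aligner, counter, strand, test or genome build is stated.

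The authors called every one of the 3733 genes in some comparison, at 1 or more log2 units. Testing this selection again on the same libraries leaves the genome-wide false discovery rate uncontrolled. Depth was estimated where counts, length and FPKM could be related, in 25 single-transcript genes of 2000 bases or longer and FPKM 3 or higher.

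Counts were rounded and fitted in edgeR 4.0.16 under R 4.3.3 by quasi-likelihood, with 1 fit over the 6 libraries, the authors' factors, filterByExpr (minimum count 10) and Benjamini-Hochberg over all 3216 tested genes, threshold 0.05. The biological coefficient of variation was 0.597 and the prior degrees of freedom were infinite. The procedure was tested on simulated counts in which genes vary independently, unlike the split between libraries shared by many genes here. Alternatives were a replicate block, no filter, median-of-ratios or TMM factors, DESeq2 1.42.0, limma 3.58.1 on log2(TPM + 1) and log2(TPM + 0.1), GC and length trends removed by loess (GENCODE transcripts, 96.2% of genes and all members), only the libraries of a comparison, and leaving out libraries. Members and gene lists were chosen with earlier results of these data known. Values per library are given for members among the 6 higher and 6 lower with the smallest unadjusted p in each comparison or with the highest mean TPM of their class (16 members); 1 further member enters the counts and medians and is not reported here. Elavl3, Celf4 and Ddx4 were added after their values were seen. Groups are said not to overlap where every library of one exceeds every library of the other.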

Additional observations from a re-analysis of the deposited data

How the results depend on the processing

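With 2 libraries per group and Control libraries that differ by a median of 2.85 times in the members, the design has little power for them. No member passed in any of the 3 comparisons under any alternative except the fit of PIA+IL-27 against PIA on its own 4 libraries, with 8 members and 449 genes called. Numbers of genes called in PIA against Control, PIA+IL-27 against PIA and PIA+IL-27 against Control were 7, 14 and 10. They were 0 in each comparison with TMM factors, median-of-ratios factors, GC and length trends removed (with and without the replicate block) and without PIA 2 and PIA+IL-27 1, an alternative chosen after seeing the data. DESeq2 called 2, 4 and 1. In limma, PIA against Control had 12 with a pseudocount of 0.1, and PIA+IL-27 against Control had 2 with 1 and 5 with 0.1. PIA+IL-27 against Control on its own libraries had 1. Leaving out 1 library at a time gave 0 to 7 in each comparison, with the lone library of a group assumed to vary like the other groups.

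Replicate numbers were shared between groups, but samples of the same number did not deviate together (correlations 0.15, 0.06 and -0.26). With the replicate block 3, 4 and 3 genes were called and 0 members, and the members' medians were -0.59, 1.33 and 0.76.

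The spread between replicates of the members' median level was 0.67, and these values are set against it. In PIA+IL-27 against PIA it was 0.085 with TMM and 0.12 with median-of-ratios factors, -0.054 with GC and length trends removed and -0.012 with the block added. In PIA against Control it was 0.081 after GC and length removal, 0.082 with the block added, and -1.20 to 0.28 over the fits without 1 library. In PIA+IL-27 against Control those fits gave 0.18 to 1.66. TMM, median-of-ratios and the GC and length removal centre each library on the listed genes, so these shifts include that centring. The highest values of the last 2 ranges come without Control 2 and lie more than that spread from the median over all 6 libraries, and the lowest, without Control 1, lie within it.

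Of 458 alternative values for 27 named member results, 430 kept direction and side of the threshold, 6 newly passed and 22 reversed. In PIA+IL-27 against PIA the reversals, given for TMM, median-of-ratios, GC and length removal, and that removal with the block, were -0.25, -0.22, -0.67 and -0.67 for Celf2, -0.16, -0.13, -0.67 and -0.60 for Hnrnpu, and -0.13, -0.10, -0.50 and -0.48 for Sf3b1. Srsf11 reversed to -0.16 and -0.12 with TMM and median-of-ratios factors. With GC and length removal, without and with the block, Ddx3x reversed to -0.15 and -0.12, Dhx36 to -0.069 in both, and, in PIA+IL-27 against Control, Hnrnpa3 to -0.095 and -0.081. Over the fits without 1 library, Rbm41 in PIA against Control ranged from -1.94 to 0.21 and Rbm47 in PIA+IL-27 against Control from -2.51 to 0.62. Beyond the centring, the cause was not tested.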
